A study of Homo sapiens with 2 samples.

Results

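The cells described here are the DNA-replicating cells of cultures of HT1080, an established human fibrosarcoma cell line, measured by single-cell RNA sequencing with and without a β1 integrin-blocking antibody. They were chosen by a transcript score. UMIs (unique molecular identifiers) each stand for 1 captured RNA molecule. Barcodes passed if they held 1000 genes or more and if mitochondrial genes gave no more than 20% of their UMIs. The 15% of kept cells with the largest UMI share of 10 mitotic genes (TOP2A, MKI67, CDC20, CCNB1, CCNB2, UBE2C, BIRC5, TPX2, CENPF and DLGAP5) were set aside as mitotic. Of the remaining cells, the 8% with the largest UMI share of 10 replication genes (MCM3, MCM4, MCM5, MCM6, TYMS, RRM2, PCNA, CLSPN, GINS2 and CDC6) were taken, over both libraries together. They numbered 326 of 4787 kept cells, 50 in the 4B4 library and 276 in the control library.

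DNA replication is prepared in G1, when the origin recognition complex, CDC6 and CDT1 load the ring-shaped MCM helicase onto DNA, and begins in S phase, when CDC45 and the GINS complex switch that helicase on. Polymerases, the sliding clamp PCNA and its loaders then copy the strands, while ribonucleotide reductase and thymidylate synthase supply deoxynucleotides and chromatin assembly factors load newly made histones. Many of these genes are transcribed together at the G1/S boundary under E2F transcription factors, which are held in check by the retinoblastoma protein until cyclin-dependent kinases release them.

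The 4B4 culture was grown for 72 h with 2 µg/ml of the antibody 4B4, which blocks β1 integrin, a subunit of the main collagen and fibronectin receptors. The control culture was grown for the same time without it. Its label names no other antibody, so blocking of the integrin and other effects of an added antibody cannot be told apart. Both cultures were wild-type HT1080 spheroids of about 2000 cells each, some 50 of them in 500 µl of collagen, from which cells invaded the gel before enzymatic release. There was 1 library per group, so library and treatment cannot be told apart and no difference between the libraries has a replicate check. For that reason no test was run. Of 1759 and 3642 barcodes, 1385 4B4 cells and 3402 control cells were kept, with 116451080 and 127218114 UMIs. The libraries shared 2 barcodes, none of them a kept cell.

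Replicating cells made up 3.61% of kept cells in the 4B4 library (2.69% to 4.73%) and 8.11% in the control library (7.22% to 9.08%), a ratio of 0.445. The intervals here and below are exact, at 95%, and hold counting error alone, not the variation between cultures. With the score cut over both libraries together, 84.7% of the selected cells came from the control library. Mitotic cells differed in the same direction, at 5.85% of the 4B4 library (4.67% to 7.22%) and 18.7% of the control library (17.4% to 20.1%), so that there were 0.617 replicating cells per mitotic cell in the 4B4 library and 0.433 in the control library. When the scores were computed at an equal 17000 UMIs per cell, replicating cells were 3.51% of the 4B4 cells and 8.91% of the control cells.

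**Figure D1:**
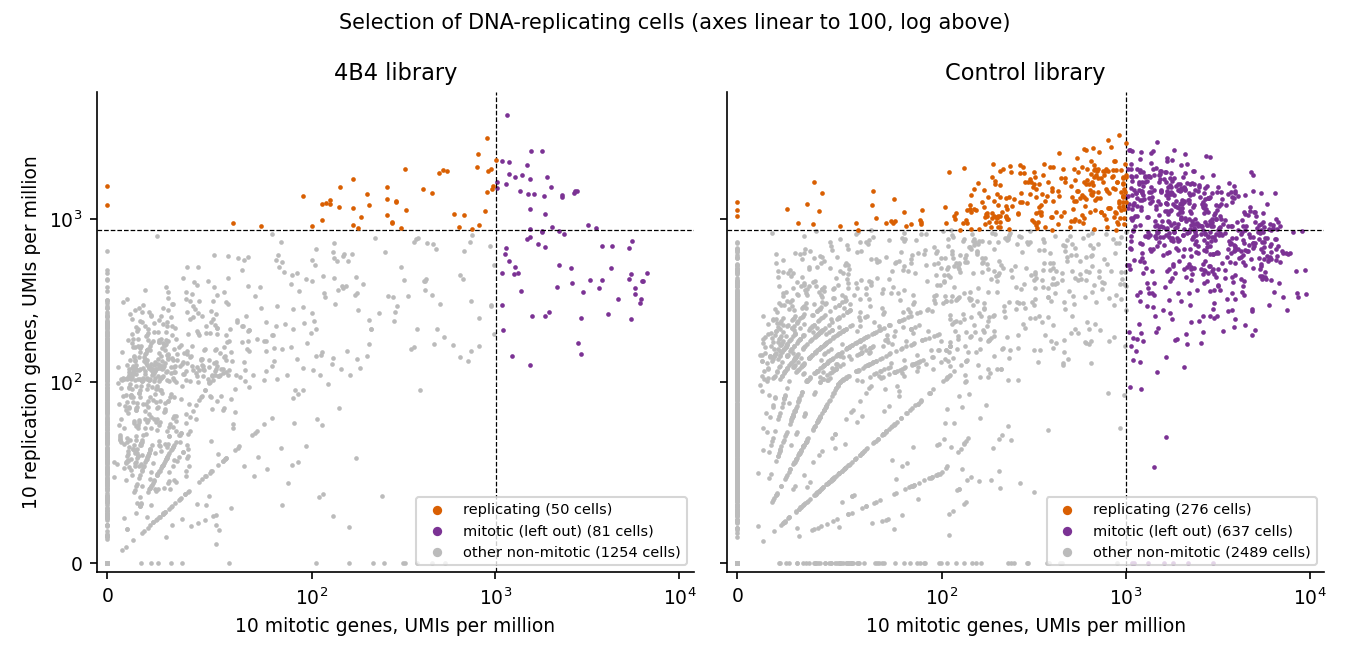
Each point is a kept cell, placed by the share of its UMIs from the 10 mitotic genes (horizontal) and the 10 replication genes (vertical), in UMIs per 1000000 UMIs of the cell, for the 4B4 library (left) and the control library (right); both axes are linear up to 100 and logarithmic above. Dashed lines are the cuts at 1009 and 852 UMIs per 1000000, and the 50 and 276 replicating cells (orange) lie above the horizontal and left of the vertical line.

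The score had no gap at the cut, so the selection is a range of a score and not a separate cell type. The cut lay at 852 UMIs per 1000000 of the cell. The last cells inside it had 862.1, 857.0, 854.8, 853.7 and 851.9, and the first outside had 851.5, 851.3, 846.6, 845.9 and 844.7. Within 10% of the cut lay 8 selected and 3 unselected cells of the 4B4 library, and 25 selected and 31 unselected cells of the control library. The selected cells' median score was 1259 UMIs per 1000000 in the 4B4 library (873 to 3155) and 1298 in the control library (852 to 3290), against medians of 97.0 and 136 in the other non-mitotic cells. Their mitotic-gene share ran without a break up to the mitotic cut at 1009 UMIs per 1000000, with medians of 281 in the 4B4 library and 390.2 in the control library, and 4 and 28 cells lay within 10% below that cut. Transcripts were measured and not DNA synthesis or DNA content.

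The replicating cells of the 4B4 library were the deeper ones. Their median was 61586 UMIs per cell (2219 to 171581), against 35717.5 (3751 to 100673) in the control library. That ratio of 1.72 accompanies every comparison between the libraries below, and its part in the differences was not tested beyond the equal-depth values given. Within a library the depth differed less: replicating cells had 0.910 times the median UMIs of other non-mitotic cells in the 4B4 library and 1.18 times in the control library. The median share of mitochondrial UMIs was 6.34% in 4B4 and 7.80% in control replicating cells, against 7.85% and 9.87% in the other non-mitotic cells. Cells above 2 times their library's median depth, among which doublets would be sought, were 3 of 50 (6.0%) and 20 of 276 (7.25%).

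Markers of other cell types were at or near 0 in these cells, apart from PECAM1, CD68 and low COL1A1. VIM, the intermediate filament vimentin, a marker of mesenchymal cells such as this line, stood at 1916 UPM (1870.1 to 1962) in 4B4 replicating cells and 2329.8 UPM (2301 to 2359) in control replicating cells, where UPM is the number of a gene's UMIs per 1000000 UMIs summed over the cells of a class. The epithelial gene CDH1 had no UMI in either, with exact upper limits of 1.06 UPM in 4B4 and 0.342 UPM in control replicating cells. Of the collagen genes, COL1A2 had no UMI in 4B4 cells and 4 in control cells, and COL1A1 had 15 in 4B4 and 27 in control cells. KRT19, CD3E, CDH5 and DCN had 1 to 9 UMIs in each library, and EPCAM, PTPRC and VWF lay between 0.556 and 1.85 UPM. By contrast PECAM1, at 26.2 and 17.2 UPM, and CD68, at 32.5 and 24.5 UPM, were measured in these cells, both below their levels in the other non-mitotic cells (47.6 and 37.2 UPM for PECAM1, 39.4 and 27.7 UPM for CD68). Replication genes outside the score are co-expressed with it, so their sum is a description. Over the licensing, firing, fork, nucleotide and chromatin lists described below, they took a median of 7213 UMIs per 1000000 of a 4B4 replicating cell. The median was 7500 in control replicating cells, against 2772 and 2756 in the other non-mitotic cells. In the cells set aside as mitotic it was 5746 and 6259.

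The 10 genes of the score chose the cells, so their levels are a description. MCM3, a subunit of the hexameric replicative helicase, was at 170.1 UPM (157 to 184) in 4B4 replicating cells and 176 UPM (169 to 184) in control replicating cells, against 27.7 UPM and 36.0 UPM in the other non-mitotic cells. Its partner subunit MCM4 was at 119.7 UPM and 115 UPM, against 9.89 and 12 UPM. MCM5 was at 113 UPM and 109.6 UPM, and MCM6 at 64.5 UPM and 55.8 UPM. Summed over the 10 genes, the level was 1346 UPM in 4B4 and 1392 UPM in control replicating cells, a likeness that the cut pooled over both libraries sets.

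CDC6 (chr17:40287633-40304657, GRCh38), which loads the helicase, was at 74.5 UPM (65.7 to 84.2) in 4B4 and 58.4 UPM (53.9 to 63.1) in control replicating cells, and 5.11 and 5.27 UPM in the other non-mitotic cells. GINS2, a subunit of the helicase activator, was at 106 UPM and 101 UPM, and CLSPN, the fork and checkpoint protein claspin, at 154 UPM and 152 UPM. TYMS, thymidylate synthase, was at 278 UPM (261 to 296) and 329.9 UPM (319 to 341), and PCNA at 185 UPM (171 to 199.9) and 220.2 UPM (211 to 229). RRM2, the regulated subunit of ribonucleotide reductase, was at 81.2 UPM and 74.0 UPM, and was higher still in the cells set aside as mitotic (115 and 126 UPM).

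At 17000 UMIs per cell, CDC6 was detected in 68.1% (52.9% to 80.9%) of 4B4 and 58.8% (52.6% to 64.8%) of control replicating cells. In the other non-mitotic cells, which serve as the background, it was detected in 5.89% (4.62% to 7.39%) and 6.95% (5.93% to 8.08%). GINS2 was detected in 76.6% and 76.4% of replicating cells and in 6.40% and 9.28% of the others. Each score gene was thus missing from part of the selected cells at that depth, and RRM2, at 44.7% and 53.9%, was the least often detected of the 10 in either library. Without thinning, at median depths of 61586 and 35717.5 UMIs in replicating cells and 67648 and 30393 in the others, the shares for CDC6 were 92.0% and 81.5% of replicating cells, against 24.1% and 12.1% of the others. Thinning left out 3 4B4 and 9 control replicating cells as too shallow.

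The promoters of several score genes carry E2F-type words. The 4 stretches shown hold such a word, and their genes set the selection or, for E2F1, encode an E2F transcription factor. Each is the 250 bases directly upstream of the RefSeq transcription start (GRCh38.p14), on the gene's strand, which for all 4 is the minus strand. Capitals mark matches to TTTCCCGC, TTTCGCGC, TTTGCCGC or TTTGGCGC on either strand, and neighbouring capitals in MCM6 are overlapping matches on both strands. The stretches lie at chr2:135876444-135876693 (MCM6), chr20:5126623-5126872 (PCNA), chr16:85688955-85689204 (GINS2) and chr20:33686386-33686635 (E2F1).
MCM6: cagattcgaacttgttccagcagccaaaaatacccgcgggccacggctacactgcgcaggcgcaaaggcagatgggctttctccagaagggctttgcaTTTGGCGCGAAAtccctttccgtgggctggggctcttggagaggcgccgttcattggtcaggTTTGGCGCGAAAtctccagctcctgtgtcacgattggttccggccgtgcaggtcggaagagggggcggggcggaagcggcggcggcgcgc
PCNA: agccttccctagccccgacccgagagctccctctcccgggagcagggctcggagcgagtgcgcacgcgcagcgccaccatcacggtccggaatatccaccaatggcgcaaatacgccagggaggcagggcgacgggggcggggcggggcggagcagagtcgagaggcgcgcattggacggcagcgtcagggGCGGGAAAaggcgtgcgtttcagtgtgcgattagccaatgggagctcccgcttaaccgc
GINS2: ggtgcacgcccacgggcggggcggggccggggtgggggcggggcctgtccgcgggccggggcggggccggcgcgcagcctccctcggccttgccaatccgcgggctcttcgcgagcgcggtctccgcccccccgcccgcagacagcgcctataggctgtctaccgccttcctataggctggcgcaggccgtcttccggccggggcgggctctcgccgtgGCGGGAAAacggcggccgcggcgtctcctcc
E2F1: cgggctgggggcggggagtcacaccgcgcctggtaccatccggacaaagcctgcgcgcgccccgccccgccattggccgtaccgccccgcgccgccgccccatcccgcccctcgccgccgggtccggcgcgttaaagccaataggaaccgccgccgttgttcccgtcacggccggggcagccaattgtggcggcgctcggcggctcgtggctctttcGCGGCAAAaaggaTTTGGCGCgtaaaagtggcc
The matches start 152, 148, 90 and 86 bases upstream of the start in MCM6, 59 in PCNA, 31 in GINS2, and 33 and 20 in E2F1. In windows from 250 bases before to 50 after the start, such a word was found for 7 of the 8 score genes with a promoter in the table (87.5%) and for 1164 of 35116 promoters of all genes (3.31%). MCM4 and MCM5 were not matched. In the 250 bases upstream alone, MCM3 and TYMS held 1 word each and RRM2, CLSPN and CDC6 none.

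Replication genes outside the score were grouped by role. A list member had to reach 5 UPM in 1 of the classes compared to be counted as measured, and counted as higher or lower at a ratio of 1.5 or more whose counting interval lay on the same side of 1. Ratios are on the log2 scale with no pseudocount. By that rule 12.2% of 11394 genes were higher and 6.25% lower in replicating than in other non-mitotic 4B4 cells, and 11.8% of 11512 genes were higher and 6.91% lower in the control library, with medians over all genes of 0.011 and -0.0033. Because the cells were chosen on co-expressed genes of the same profiles, these shares say what goes with the selection and test nothing. The ratios of the libraries also have unlike denominators. Summed, the score genes stood at 139.9 UPM in the other non-mitotic 4B4 cells and 201.5 UPM in those of the control library. A larger ratio in the 4B4 library is thus no sign of a higher level in its replicating cells.

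Of 13 measured genes of origin licensing, 10 were higher in replicating cells of each library and none was lower, with median log2 ratios of 2.60 in the 4B4 and 2.27 in the control library. MCM10, which joins the helicase as origins fire, was at 64.8 UPM (56.6 to 73.8) in 4B4 and 55.6 UPM (51.2 to 60.2) in control replicating cells, against 1.77 and 3.27 UPM in the other cells. CDT1, the helicase loader, was at 63.0 and 60.1 UPM, against 6.01 and 8.17 UPM. The origin recognition complex was split. ORC1, its regulated subunit, had log2 ratios of 3.76 and 2.92 and ORC6 of 4.16 and 3.56, whereas ORC2 had 0.32 and -0.13, ORC4 -0.12 and -0.17, and ORC5 0.43 and 0.41.

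All measured genes of helicase activation and origin firing were higher, 12 of 12 in the 4B4 library and 11 of 11 in the control library, with medians of 2.21 and 1.76. CDC45 was at 48.9 UPM (41.8 to 56.9) in 4B4 and 39.7 UPM (36.1 to 43.7) in control replicating cells, against 1.84 and 2.67 UPM in the others. WDHD1, which ties polymerase α to the helicase, was at 64.2 and 53.3 UPM, against 6.29 and 8.94 UPM. For the kinase pair that fires origins, log2 ratios were 2.25 and 2.14 for CDC7 and 1.62 and 1.66 for its activator DBF4.

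Of 30 polymerase and fork genes, 27 were higher and 1 lower in the 4B4 library and 28 higher and 1 lower in the control library, with medians of 2.21 and 2.16. PCLAF, a PCNA-binding protein, was at 243 UPM (227 to 259.9) in 4B4 and 272 UPM (262 to 282) in control replicating cells, against 16.1 and 30.6 UPM in the others. DSCC1, a subunit of an alternative clamp loader, was at 46.6 and 35.9 UPM, against 2.67 and 3.81 UPM. The subunits of a single polymerase did not move together. For DNA polymerase δ, POLD3 had log2 ratios of 2.84 and 2.66 and the catalytic subunit POLD1 1.06 and 1.40, while POLD4 was the gene that was lower (-0.83 and -0.69). For polymerase ε, POLE2 had 3.07 and 2.81, and POLE4 0.18 and 0.26.

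Nucleotide synthesis genes were higher by less: 18 of 24 in each library, with medians of 1.07 and 1.12 and 1 lower gene in the control library. RRM1, the large subunit of ribonucleotide reductase, had log2 ratios of 2.61 and 2.40, and TK1, the salvage enzyme thymidine kinase, 3.49 and 2.37. RRM2B, the alternative reductase subunit known as a p53 target, had -0.49 and -0.60 and was the lower gene in the control library. IMPDH2 and ADSL, enzymes of purine synthesis named after their values were seen, had log2 ratios of 0.00040 and 0.15 and of 0.25 and 0.27.

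Of 15 genes of chromatin assembly and DNA methylation, 14 were higher in each library, with medians of 2.62 and 2.29. ASF1B, a histone chaperone, was at 73.4 UPM (64.7 to 83.0) in 4B4 and 60.3 UPM (55.8 to 65.1) in control replicating cells, against 3.24 and 4.89 UPM in the others. Its paralog ASF1A had log2 ratios of -0.015 and 0.25 and was the gene that was not higher. CHAF1A, the large subunit of chromatin assembly factor 1, had 3.87 and 3.22, and DNMT1, the maintenance DNA methyltransferase, 1.75 and 1.67.

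Histone genes were mixed. Of 13 measured, 6 were higher and 3 lower in the 4B4 library and 9 higher and 2 lower in the control library, with medians of 0.44 and 0.84. HIST1H4C was at 1161 UPM (1125 to 1197) in 4B4 and 1055 UPM (1036 to 1074) in control replicating cells, against 413 and 345 UPM in the others. HIST1H3B had log2 ratios of 3.67 and 4.14. HIST1H2AC (-0.97 and -0.85) and HIST2H2BE (-1.39 and -1.24) were lower in both libraries. Most replication-dependent histone transcripts end without a poly(A) tail and the libraries were made from polyadenylated RNA, and near-identical histone genes can share reads, so these levels are uncertain measures of each gene.

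Repair and fork protection genes had the largest median of the replication lists, at 3.05 in the 4B4 and 2.85 in the control library, with 23 of 24 higher in each. EXO1, an exonuclease of mismatch repair and end resection, was at 31.9 UPM (26.3 to 38.5) in 4B4 and 27.0 UPM (23.9 to 30.2) in control replicating cells, against 1.48 and 2.16 UPM in the others. Its log2 ratios were 4.43 and 3.64, and those of BRCA1 3.51 and 2.92. ATR, the checkpoint kinase itself, had 0.42 and 0.20. Of 12 cohesin genes 4 were higher in each library, with medians of 0.49 and 0.30. ESCO2, which acetylates cohesin during S phase, had 4.66 and 4.02 and CDCA5, sororin, 4.13 and 3.45, while the ring subunits SMC1A (1.27 and 1.12) and SMC3 (1.07 and 0.88) were higher by less.

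Among 25 regulators of G1/S entry, 17 were higher and 2 lower in the 4B4 library and 15 higher and 3 lower in the control library, with medians of 0.79 and 0.73. E2F1 was at 58.4 UPM (50.7 to 67.0) in 4B4 and 55.2 UPM (50.9 to 59.8) in control replicating cells, against 3.75 and 4.11 UPM in the others. CCNE2, a cyclin E that drives S phase entry, was at 23.6 and 18.4 UPM, against 1.14 and 1.48 UPM. CCND1, cyclin D1, was at 283 and 401 UPM, against 159 and 241 UPM. The inhibitor CDKN1A, p21, was lower in replicating cells (-1.01 and -0.85), as was E2F5 (-0.70 and -1.44).

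Genes of G2 and mitosis outside both scores were higher too, 34 of 37 in the 4B4 library and 35 of 37 in the control library, with medians of 3.01 and 2.52, although the cells richest in mitotic transcripts had been removed. CDK1, the mitotic kinase, was at 61.9 UPM (53.9 to 70.7) in 4B4 and 57.0 UPM (52.5 to 61.6) in control replicating cells, against 5.28 and 6.26 UPM in the other cells. LMNB1, lamin B1, had log2 ratios of 3.91 and 3.23, and TTK, a spindle checkpoint kinase, 4.01 and 3.47. The summed 10 mitotic genes of the rule stood at 452 UPM in 4B4 and 463 UPM in control replicating cells, against 59.0 and 85.9 UPM in the others.

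**Figure D2:**
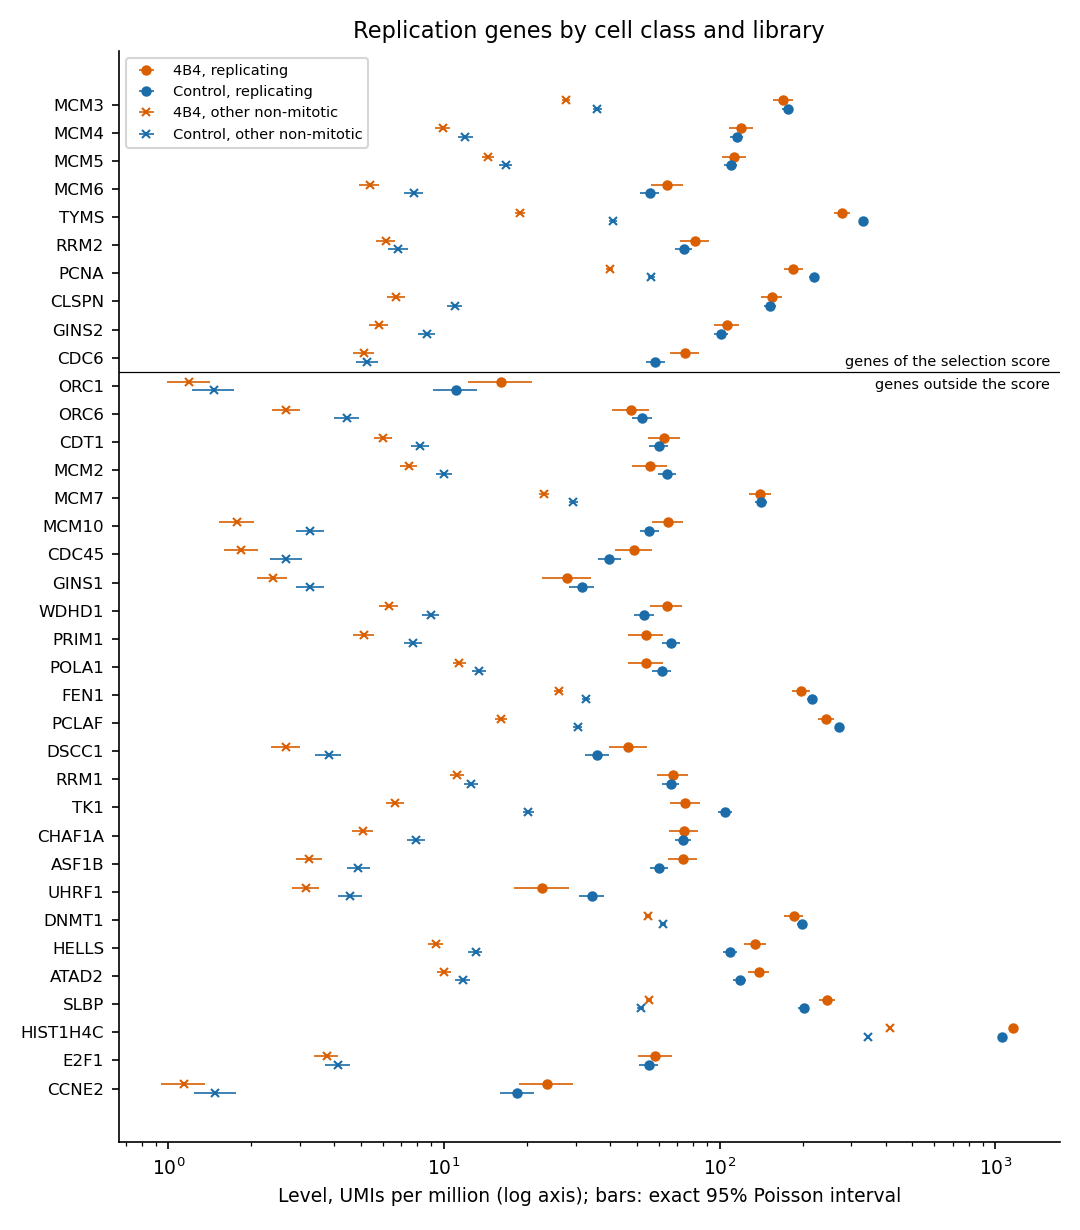
Levels of the 10 score genes (above the line) and 26 replication genes outside the score (below it), in UMIs per 1000000 on a logarithmic axis, in replicating cells (circles) and other non-mitotic cells (crosses) of the 4B4 library (orange) and the control library (blue); bars are exact 95% Poisson intervals. Circles lie right of crosses for each gene.

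Over all genes with at least 20 UPM in either class of both libraries, 604 of 6697 (9.02%) were at least 1.5-fold higher in replicating than in other non-mitotic cells of both libraries and 104 (1.55%) at least 1.5-fold lower. Of these, 118 of the higher and 3 of the lower genes were on the replication lists. Ranked by the library with the smaller ratio, the first was FAM111B (chr11:59107185-59127410, GRCh38), a protease. FAM111B was at 36.5 UPM (30.5 to 43.5) in 4B4 and 33.3 UPM (29.9 to 36.9) in control replicating cells, against 0.493 and 1.38 UPM in the others. It was followed by POLQ (4.41 and 4.16), the polymerase of end joining at broken forks, MCM10, and PKMYT1 (4.83 and 4.08), a kinase that restrains CDK1. NCAPG (4.32 and 4.02), a condensin subunit, SKA3 (4.70 and 3.89), a kinetochore protein, TCF19 (4.19 and 3.75) and DIAPH3 (3.81 and 3.70), an actin-nucleating formin, were also among the 12 largest. Genes of DNA copying and of chromosome segregation thus stood side by side in the ranking. Of the 12, POLQ, ESCO2, NCAPG, SKA3 and DIAPH3 were higher still in the cells set aside as mitotic. NCAPG was at 101 UPM in 4B4 and 99.1 UPM in control mitotic cells, against 47.5 and 39.9 UPM in replicating cells. FAM111B, MCM10, PKMYT1, CDC45, TCF19 and E2F1 were lower in mitotic than in replicating cells of both libraries, and RAD51AP1 differed by library.

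Among the genes that were lower in replicating cells of both libraries, CCNG2, a cyclin of arrested cells, was at 10.1 UPM (7.02 to 14.0) in 4B4 and 4.35 UPM (3.20 to 5.79) in control replicating cells, against 21.5 and 20.3 UPM in the others. TXNIP, a thioredoxin inhibitor, was at 56.4 and 54.7 UPM, against 131 and 149 UPM. KDM5B, a histone H3 lysine demethylase, had log2 ratios of -1.42 and -1.52. LRRTM4 (-2.11 and -1.46), PURPL (-1.80 and -1.40), a long noncoding RNA, SLC5A3 (-1.30 and -1.50), a myo-inositol transporter, and RANBP3L (-1.63 and -1.15) completed the smallest 8 with HIST1H2BD. MALAT1, an abundant nuclear RNA, was lower in replicating cells as well, at 9347 UPM in 4B4 and 7882 UPM in control replicating cells, against 12929.8 and 14569 UPM in the others. The 13 mitochondrially encoded genes had median log2 ratios of -0.12 and -0.34.

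Genes of ribosome biogenesis, which growing cells make before division, were higher in replicating cells for 10 of 24 members in each library, with medians of 0.50 and 0.47. NOP56, a nucleolar RNA-modifying protein, had log2 ratios of 1.39 and 1.20, and DKC1, dyskerin, 1.09 and 1.08. The 89 ribosomal protein genes had medians of -0.083 and -0.0069. Targets of p53 went the other way, with 7 of 23 lower and 1 higher in the 4B4 library and 9 of 24 lower and 2 higher in the control library, and medians of -0.29 and -0.40. BBC3, the cell death gene PUMA, had -0.94 and -1.13 and MDM2, the ligase that degrades p53, -1.20 and -0.75. PMAIP1, the cell death gene NOXA, was higher (0.99 and 0.73).

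Few matrix genes were called between replicating and other cells. Of 20 matrix proteases, 2 were higher and none lower in the 4B4 library and 2 higher and 1 lower in the control library. Of the matrix proteins, 3 were higher and 2 lower of 24 in the 4B4 library and of 22 in the control library, and of 12 integrin subunits 1 was higher and 1 lower in 4B4 and 1 higher and 3 lower in control. The shares called higher lie near the 12.2% and 11.8% of all genes. FN1, fibronectin, was at 819 UPM in 4B4 and 438 UPM in control replicating cells, against 1227 and 829 UPM in the others, and TIMP1, a metalloproteinase inhibitor, had a log2 ratio of -0.51 in each library. PLAU, the urokinase-type plasminogen activator, was higher in replicating cells, with 1.32 and 0.71, as were PLAT (1.00 and 0.78), its tissue-type counterpart, and the pentraxin PTX3 (1.41 and 1.44). SAA1, an acute-phase serum amyloid protein, was at 45.8 UPM (38.9 to 53.5) in 4B4 and 156 UPM (148 to 163) in control replicating cells, against 6.91 and 36.1 UPM in the others. It was found in 6 of 50 and 92 of 276 replicating cells, and 1 cell held 54.1% of its UMIs in the 4B4 replicating cells. Its log2 ratios over the other cells were 2.73 and 2.11, and 1.62 and 2.00 without the top cell of each library.

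Promoters of the genes that were higher in replicating cells of both libraries held an E2F-type word in 82 of 486 cases (16.9%), against 1 of 79 (1.27%) for the lower genes and 329 of 5432 (6.06%) for all genes compared that have a promoter in the table. By role the share was 5 of 13 for origin licensing, 5 of 14 for chromatin assembly, 7 of 24 for fork genes, 1 of 20 for nucleotide synthesis and 3 of 33 for G2 and mitosis. A CCAAT word on either strand was found in 21 of those 33 G2 and mitosis promoters, in 1984 of the 5432 (36.5%) and in 7 of the 8 score genes' promoters. Among the 12 genes with the largest ratios, 9 have a promoter in the table, of which E2F1's alone held an E2F-type word. A match of letters is no evidence of binding.

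Within the replicating cells, levels were followed across 3 groups of rising mitotic-gene share, bounded at 226 and 601 UMIs per 1000000, with 20, 16 and 14 cells of the 4B4 library and 89, 92 and 95 of the control library. MCM3 stood at 179.6, 179 and 152 UPM in the low, middle and high groups of the 4B4 library and at 186, 178 and 167 UPM in those of the control library. Within each library the intervals of its groups overlapped. Another helicase subunit, MCM6, stood at 64.1, 82.9 and 48.4 UPM in the 4B4 library, where the middle and high groups did not overlap, and at 60.9, 59.5 and 47.9 UPM in the control library. CDT1 stood at 65.7, 60.0 and 62.8 UPM and 61.5, 61.5 and 57.6 UPM. By contrast RRM2 stood at 17.6, 83.9 and 146 UPM in the 4B4 library and 19.9, 67.6 and 126 UPM in the control library. TYMS stood at 196, 273 and 369 UPM and 239, 314 and 422 UPM. The score genes differed from each other along this order, and RRM2 in the high group was over 6 times its level in the low group of either library. Each cell had to pass a cut on the sum of the score genes, so a cell low in some of them had to be higher in others. Their courses are therefore partly set by the selection. Summed, the score genes stood at 1158, 1395 and 1501 UPM in the 4B4 library and 1185, 1387 and 1574 UPM in the control library.

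HIST1H4C stood at 725, 883 and 1871 UPM in the low, middle and high groups of the 4B4 library and 464, 844 and 1754 UPM in those of the control library. CCNE2 was lowest in the low group, at 15.2, 25.7 and 30.6 UPM and 8.75, 22.3 and 23.2 UPM, but in the 4B4 library the intervals of all its groups overlapped. E2F1 was highest in the middle group, at 44.9, 74.3 and 58.6 UPM and 43.7, 64.5 and 56.4 UPM, although the intervals of its middle and high groups overlapped in each library. CDK1 followed the mitotic genes that define the order, at 22.4, 50.5 and 114 UPM and 16, 56.2 and 92.7 UPM, and ESCO2 likewise, at 8.02, 23.8 and 68.8 UPM and 4.52, 18.6 and 41.2 UPM. CCND1 took a different course in each library, at 266, 416 and 183 UPM in the 4B4 library and 402, 387 and 412 UPM in the control library, the 4B4 values resting on 14 to 20 cells a group. Median depth went up along the same order, at 51127, 61888 and 92750.5 UMIs per cell in the 4B4 library and 33677, 35412.5 and 38460.0 in the control library, and the part of depth was not tested.

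**Figure D3:**
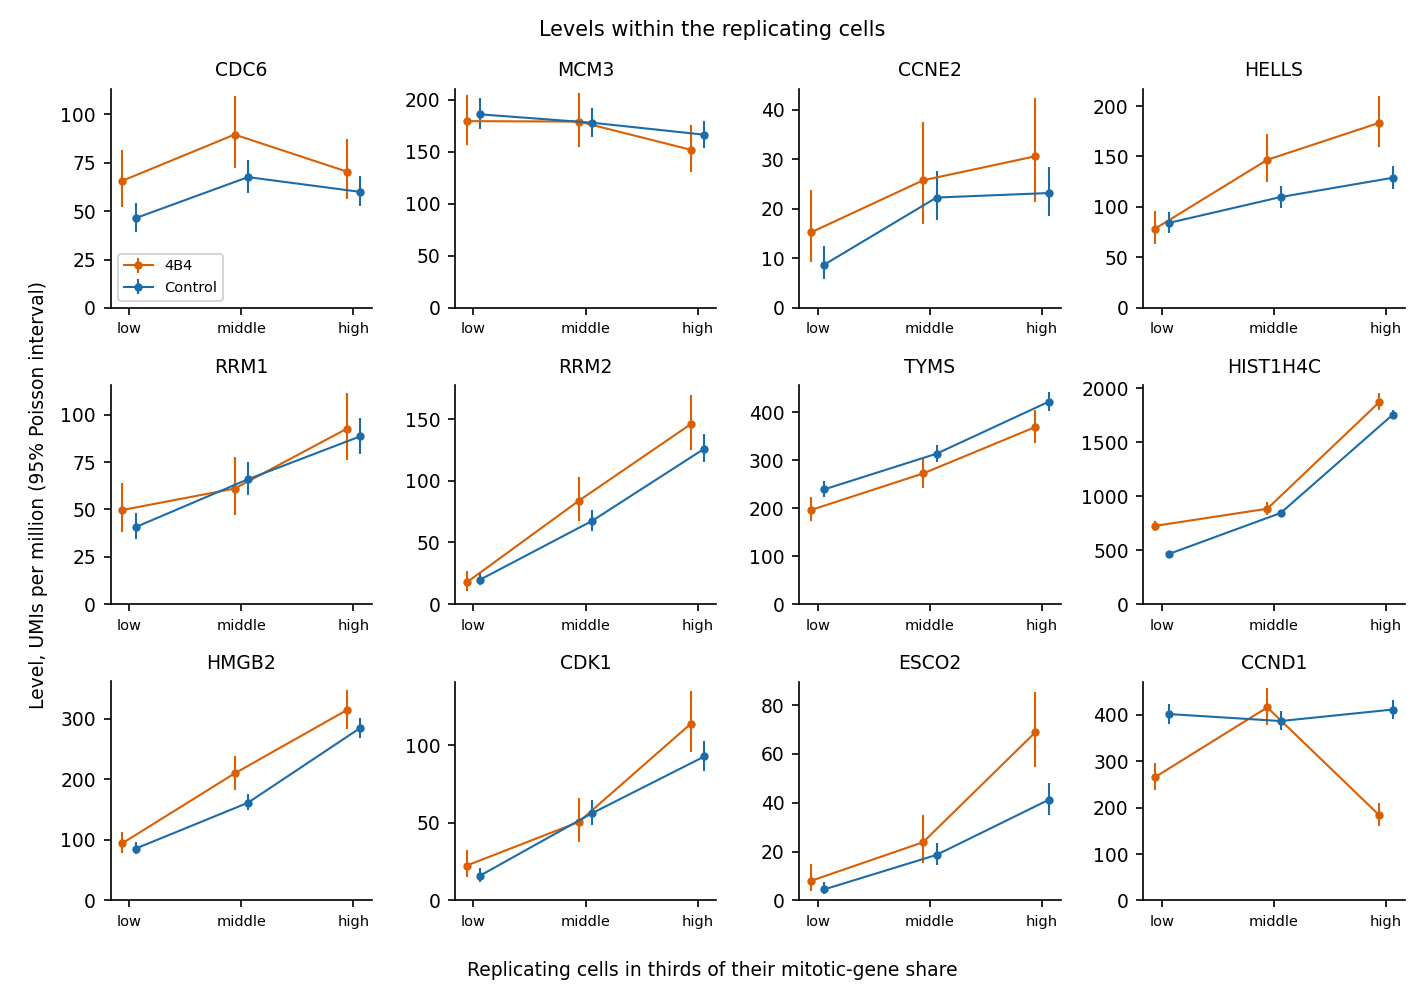
Levels of 12 genes in UMIs per 1000000 (vertical, linear from 0) in the replicating cells split into low, middle and high groups of their mitotic-gene share (horizontal), for the 4B4 library (orange, 20, 16 and 14 cells) and the control library (blue, 89, 92 and 95 cells); bars are exact 95% Poisson intervals. MCM3 is flat, RRM2, HIST1H4C, CDK1 and ESCO2 climb in both libraries, and CCND1 is flat in the control library only.

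The comparison of 4B4 with control replicating cells asks which transcripts differed with the antibody among cells chosen by the same score. Both libraries were cut at the same replication and mitotic scores, so a likeness of co-expressed replication genes goes with the selection and is no finding. By the list rule 4.04% of 11375 genes were higher and 4.59% lower in 4B4 than in control replicating cells, with a median log2 ratio of 0.029 over all of them. No gene was called in either direction among 13 of origin licensing (median 0.068), 30 of polymerases and forks (0.0070), 24 of repair (0.14) and 12 of cohesin (0.15). Of 12 firing genes, TICRR, which helps load CDC45, was higher (0.79, interval 0.021 to 1.52), and the median was 0.24. In the other non-mitotic cells, where these genes are low, the medians were -0.079 for licensing, -0.078 for forks and -0.24 for repair. Cuts made within each library take 94 4B4 and 231 control cells as replicating. They set aside 208 4B4 and 510 control cells as mitotic, against 81 and 637 by the pooled cuts. The libraries are then cut at different scores, so the cells compared are not matched on them and differences in these genes go with the cuts. The medians over these cells were -1.34 for licensing, -1.40 for firing, -1.38 for forks, -1.77 for repair and -3.38 for G2 and mitosis. MCM10 had a log2 ratio of -2.38 and CDC45 of -2.72 by those cuts, against 0.22 and 0.30 by the pooled ones.

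By the pooled cuts, of 24 nucleotide synthesis genes (median -0.084), SLC29A1, a nucleoside transporter, was higher (0.65, interval 0.37 to 0.94) and SAMHD1, which degrades deoxynucleotides, lower (-0.73, interval -1.38 to -0.13). UHRF1, which recruits DNMT1, was lower (-0.59, interval -0.96 to -0.24) among 15 chromatin genes. Of 25 G1/S regulators, the inhibitors CDKN1B (0.69, interval 0.18 to 1.18) and CDKN2D (0.94, interval 0.43 to 1.44) were higher, and CCNE1 (-0.64, interval -1.29 to -0.050), CDC25A (-0.81, interval -1.48 to -0.20) and FBXO5 (-0.79, interval -1.02 to -0.57), an inhibitor of the anaphase-promoting complex, were lower. FBXO5 was at 55.3 UPM (47.7 to 63.6) in 4B4 and 95.9 UPM (90.1 to 102) in control replicating cells. Of 12 histone genes, HIST1H2AG, HIST1H2BJ, HIST1H3B and HIST1H3D were lower, with log2 ratios of -0.68, -0.69, -0.71 and -1.15, and none was higher. With the mitotic cut at 20% HIST1H3B came to 0.42. Of 37 genes of G2 and mitosis, 3 were higher, among them BUB1B (0.81, interval 0.45 to 1.16), and 2 lower, among them PTTG1 (-0.83, interval -1.11 to -0.56).

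Of 6918 genes that reached 20 UPM in the replicating cells of 1 or both libraries, 26 (0.376%) were at least 2-fold higher in 4B4 than in control replicating cells and 42 (0.607%) at least 2-fold lower, with a median log2 ratio of 0.042. Among the other non-mitotic cells the counts were 20 (0.303%) and 40 (0.606%) of 6599. None of the 26 and 1 of the 42, HIST1H3D, was on the replication lists, where a likeness goes with the pooled cuts and is no finding. HIST1H3D came to -0.063 with the mitotic cut at 20%. The direction was the same in the other non-mitotic cells for 24 of the 26 and 41 of the 42, and 10 and 18 of them passed 2-fold there too. The share of all 6918 genes with the same direction was not computed. Both classes come from the same libraries, so this likeness carries any difference between the libraries as well. Single cells weigh heavily with 50 cells in the 4B4 library: in 11 of the 26 genes 1 cell held over 25% of the UMIs of the 4B4 replicating cells, and 17 of the 26 were still 2-fold higher without the top cell of each library.

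HMOX1, haem oxygenase 1, was at 87.5 UPM (77.9 to 97.9) in 4B4 and 21.9 UPM (19.2 to 24.8) in control replicating cells, and at 108 UPM and 25.1 UPM in the other non-mitotic cells. Its log2 ratio of 2.00 (1.75 to 2.25) ranged from 0.64 to 3.33 over 15 alternative settings, lowest with the mitotic cut set at 20% and highest under the stricter cell filter. The gene was uneven across cells: a 4B4 replicating cell had a median of 27.2 UMIs per 1000000 and a highest value of 514, and 34 of 50 cells had a UMI, against 102 of 276 control replicating cells, whose median was 0 and highest value 629. At 17000 UMIs per cell it was detected in 48.9% (34.1% to 63.9%) of 4B4 and 22.1% (17.3% to 27.6%) of control replicating cells, close to the 52.4% and 23.1% of the other cells of each library.

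SPP1 encodes osteopontin, a secreted ligand of integrins. It stood at 168 UPM (154 to 182) in 4B4 and 50.9 UPM (46.7 to 55.3) in control replicating cells, with a log2 ratio of 1.72 (1.55 to 1.89) that ranged from 1.23 to 1.88 over the settings. It was detected in 74.5% (59.7% to 86.1%) and 39.3% (33.4% to 45.5%) of replicating cells at equal depth. UNC13C (2.26), a synaptic vesicle protein, and the noncoding RNA LINC01433 (1.90) were also higher, but UNC13C came to 0.35 over cells of 20000 to 60000 UMIs, a window that holds 20 4B4 and 229 control replicating cells. RHOB, a small GTPase induced by stress, was at 98.4 and 35.6 UPM, and the lipoprotein genes APOE (1.67) and APOC1 (1.35) were higher together. PRSS35 (1.64), a secreted serine protease-like protein, CHI3L1 (1.56), a chitinase-like glycoprotein with 52.0% of its 4B4 UMIs in 1 cell, LINC00342 (1.47) and PDE7B (1.24), a cyclic AMP phosphodiesterase, completed the 12 largest with IGFBP2. IGFBP2, which binds insulin-like growth factors, had 1.79 in replicating and 0.15 in other cells, with 43.2% of its 4B4 UMIs in 1 cell, and 1.18 without the top cell. Of these 12 genes 9 fell short of 2-fold in at least 1 setting. LINC00342 came to 0.068 and PDE7B to 0.25 with cuts within each library, CHI3L1 to 0.16 with the mitotic cut at 20%, and PRSS35 to 0.26 over cells of 20000 to 60000 UMIs.

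In the other direction, PLK2 (chr5:58453982-58460260, GRCh38), a stress-responsive polo-like kinase, was at 29.4 UPM (23.9 to 35.6) in 4B4 and 95.9 UPM (90.1 to 102) in control replicating cells. TAGLN, the actin-binding protein transgelin, was at 18.7 UPM (14.4 to 23.8) and 58.4 UPM (53.9 to 63.1), with a log2 ratio of -1.64 against -0.69 in the other cells. SAA1 had -1.77, or -2.76 without the top cell. Its close paralog SAA2, named here after its value was seen, had the lowest ratio of the genes at the floor, -4.03. SAA2 was at 2.30 UPM in 4B4, which rests on few UMIs, and at 37.7 UPM in control replicating cells. It is not 1 of the 12 because its ratio did not keep a finite value of the same sign in every setting. Reads of SAA1 and SAA2, and of KRTAP2-3 (-2.36) and its near copies, may have been split between genes by the counting. For KRTAP2-3 1 cell held 77.8% of the 4B4 UMIs, and the ratio was -4.19 without the top cells. PTX3 (-1.46), the calcium-dependent kinase-like gene DCLK1 (-1.79), SLC35F3 (-1.79), TMEM200A (-1.66), NMT2 (-1.34), an N-myristoyltransferase, and the zinc finger gene ZC3H3 (-1.31) were lower as well. ZC3H3 had -0.18 in the other cells and -0.018 when cells were not filtered. Of the 12 lower genes 7 came within 2-fold in at least 1 setting, among them PTX3 at -0.50 and SAA1 at -0.63 over cells of 20000 to 60000 UMIs, and MDM2 at -0.16 with cuts within each library.

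**Figure D4:**
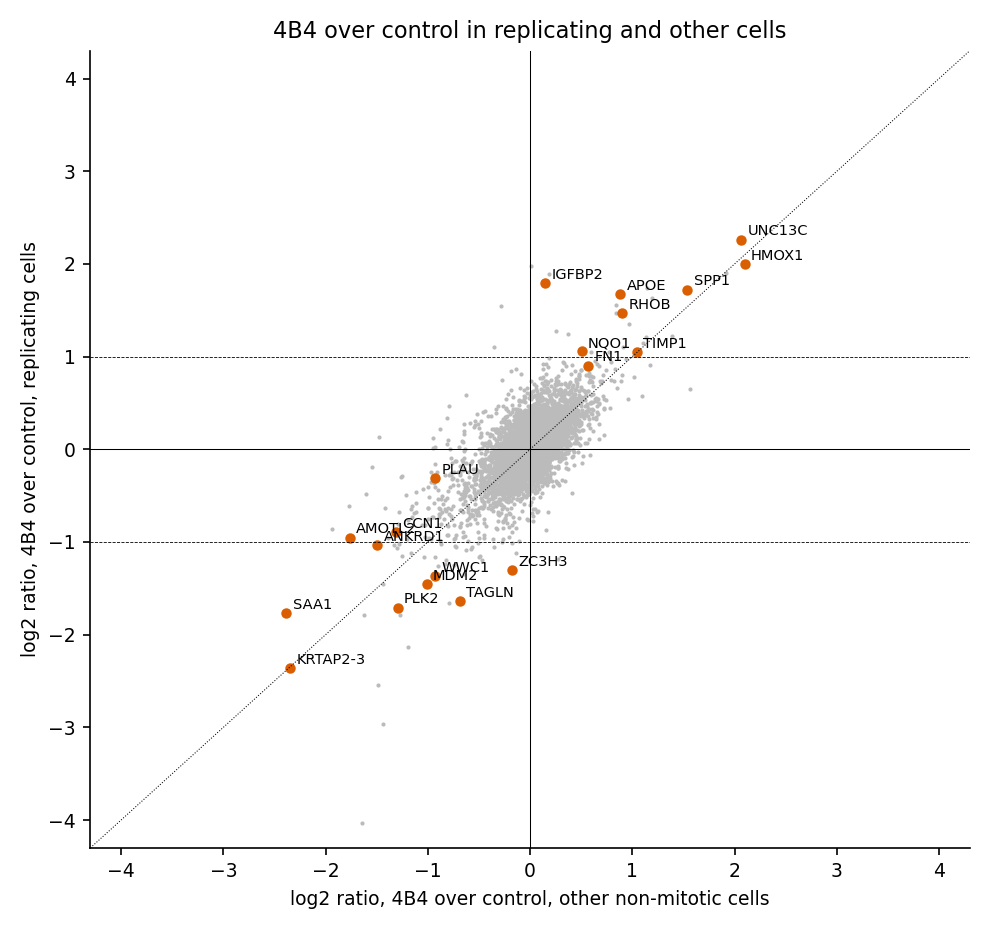
Log2 ratios of 4B4 over control in replicating cells (vertical) against the same ratio in other non-mitotic cells (horizontal) for the 6918 genes that reached 20 UPM in replicating cells; dashed lines mark 2-fold, the dotted line equal ratios, and orange points are named genes. HMOX1, SPP1 and UNC13C lie upper right and SAA1 and KRTAP2-3 lower left near the dotted line, while IGFBP2 and ZC3H3 lie near 0 on the horizontal axis.

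Targets of YAP and TEAD, which respond to adhesion and cell spreading, were lower in 4B4 replicating cells, with 10 of 23 called lower, none higher and a median log2 ratio of -0.52. In the other non-mitotic cells, where 3.29% of 11192 genes were called lower and 1.65% higher, 15 of 23 were lower and none higher, with a median of -0.70. ANKRD1 was at 82.9 UPM (73.6 to 93) in 4B4 and 170.1 UPM (162 to 178) in control replicating cells, with a ratio of -1.04 there and -1.49 in the other cells. For CCN1, a secreted regulator of adhesion, the levels were 100.4 UPM (90.2 to 112) and 187 UPM (179 to 195), with -0.89 and -1.31, and AMOTL2, a Hippo pathway scaffold, had -0.95 and -1.76. The top cell of each gene held 23.6% (ANKRD1), 18.6% (CCN1) and 23.5% (AMOTL2) of its UMIs in the 4B4 replicating cells. Without the top cell of each library the ratios in replicating cells were -1.32, -1.12 and -1.26. WWC1 (-1.37) and AJUBA (-1.77) were the largest of the list. Within the 4B4 library these genes were higher in replicating than in other cells for 6 of 22 members and lower for 1, and in the control library for 4 of 23 and none, and whether the difference with the antibody itself differs between replicating and other cells was not tested. Over the settings the list's median ranged from -0.87 to -0.24.

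SRF and MRTF targets, which follow actin, had a median of -0.065 with 3 of 24 lower (TAGLN, ACTA2 and FILIP1L) and none higher, and the sign of that median turned under the stricter cell filter (0.068), with the replication cut at 5% (0.00036) and over cells of 20000 to 60000 UMIs (0.026). ACTA2, smooth muscle actin, had -1.18, and 0.15 with cuts within each library. Integrin subunits had a median of -0.015, also of either sign over the settings, and ITGA11, a collagen receptor subunit, was the 1 of 12 that was called (0.60, interval 0.37 to 0.83). ITGB1, which encodes the subunit the antibody binds, was at 816 UPM (786 to 846) in 4B4 and 608 UPM (594 to 623) in control replicating cells, a log2 ratio of 0.42 against 0.25 in the other cells.

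Genes of the haem and oxidative stress response were higher in 4B4 replicating cells, 7 of 18 with none lower and a median of 0.49, against 5 of 18 and 0.33 in the other cells. NQO1, a quinone reductase, was at 316 UPM (298 to 335) in 4B4 and 152 UPM (144 to 159) in control replicating cells, ME1, malic enzyme, had 1.05, SLC7A11, the cystine importer, 0.99, and FTH1, ferritin heavy chain, 0.85. Targets of p53 were lower for 6 of 22 with none higher, with a median of -0.30, which was 0.032 when the cuts were made within each library. MDM2 was at 33.7 UPM (27.8 to 40.4) in 4B4 and 92.5 UPM (86.9 to 98.5) in control replicating cells, with a ratio of -1.46 that ranged from -2.38 to -0.16 over the settings and was smallest in size with cuts within each library. FAS, a death receptor, had -1.67 and AEN, a nuclease, -1.08, while CDKN1A had -0.31, short of 1.5-fold. No ribosome biogenesis gene of 24 was called, at a median of -0.21.

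Among 20 matrix proteases 3 were called higher and 1 lower, with a median of 0.40. PRSS35, HTRA1 (0.90), a secreted serine protease, and BMP1 (0.65), a procollagen-processing protease, were higher, and PLAT (-0.73) was lower. PLAU was at 213 UPM (198 to 229) in 4B4 and 264 UPM (254 to 274) in control replicating cells, with -0.31 here and -0.93 in the other cells, and MMP14, a membrane-bound collagenase, was at 46.9 and 35.3 UPM (0.41). The signs of both turned under other settings, to 0.069 for PLAU over cells of 20000 to 60000 UMIs and -0.18 for MMP14 over thinned cells. TIMP1, at 2992 UPM (2935 to 3050.0) and 1449.6 UPM (1427 to 1473), was the higher and SERPINB2 (-3.25) the lower of the called among 10 protease inhibitors, whose median was 0.11. The SERPINB2 value rests on 2 UMIs in 2 4B4 cells, against 59 UMIs in 22 control cells, and turned to 1.23 with cuts within each library. The median of 23 matrix proteins was 0.13. SPP1, FN1 (0.90) and COL4A1 (0.59) were higher, and TGFBI (-0.95) and COL13A1 (-0.67) lower.

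**Figure D5:**
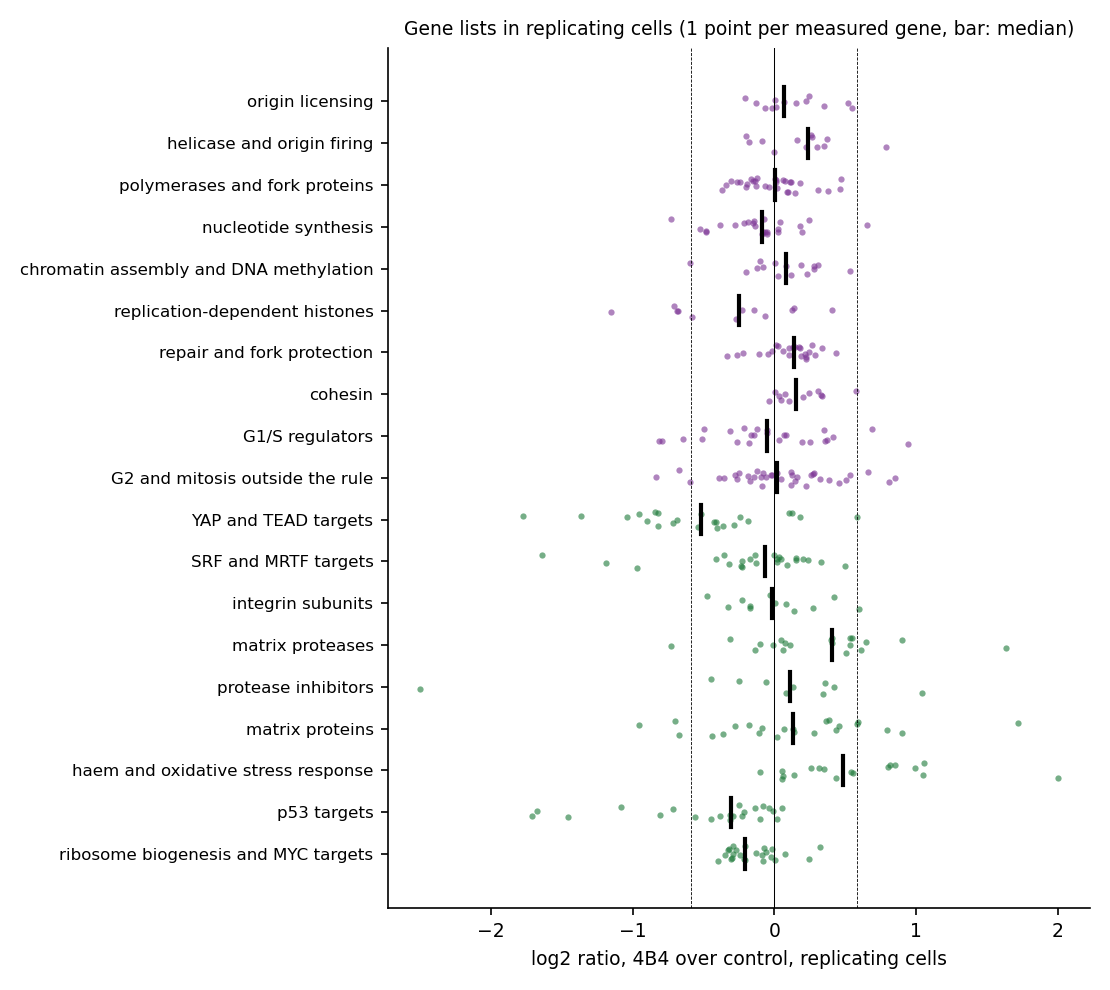
Log2 ratios of 4B4 over control in replicating cells (horizontal), 1 point per measured gene, for 10 replication and cell cycle lists (purple) and 9 lists of adhesion, matrix and stress genes (green); black bars are medians and dashed lines mark 1.5-fold, and 1 gene beyond -2.5 is drawn at that value. The purple medians lie between -0.25 and 0.24, and the lowest and highest medians are those of the YAP and TEAD targets (-0.52) and the haem and oxidative stress response (0.49).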

How the data were processed

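Single cells of 2 libraries, 1 per group, were profiled with 10x Chromium 3′ v3 chemistry, which captures polyadenylated RNA, per the labels' protocols. The deposited matrices hold UMI counts per gene and barcode, which the authors made against GRCh38. Cell Ranger 7.1.0 and Seurat 5.0.1 are named without their roles, per the submitters' processing notes. The gene annotation release, the strand setting and the handling of reads that match several genes were not found in the labels or headers.

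From the counts, barcodes with 1000 or more genes and at most 20% mitochondrial UMIs were kept. Cells were classed by the UMI shares of 10 mitotic and 10 replication genes, with cuts pooled over both libraries. No doublet caller was run. Counts were summed per library and class and divided by the class total, giving UMIs per 1000000 (UPM). Levels have exact Poisson intervals, ratios conditional binomial intervals and shares Clopper-Pearson intervals, all at 95%, and molecules of 1 cell are not independent, so the intervals cover counting error only. The cells, not cultures, are the units behind these sums, so no test was run.

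Between libraries, a gene was counted at a ratio of 2 with 20 UPM in 1 of them, and a list member at a ratio of 1.5 with 5 UPM. Genes named are the 10 score genes, the 12 largest ratios in each direction between libraries with a stable sign over the alternatives, the 12 largest and 8 smallest ratios between replicating and other cells, the 4 measured genes per list that differed most, and 12 single genes. Mitochondrial, ribosomal protein and clone-named genes were left out of the rankings. Further list members named were chosen after their values were seen. The members and lists were chosen with earlier results of these data known.

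Promoters came from RefSeq (GRCh38.p14) by gene symbol, and gene positions from GENCODE on GRCh38 by gene identifier, with 94.6% of identifiers matched. Python 3.11.15, numpy 2.4.6, scipy 1.17.1, pandas 2.3.3 and matplotlib 3.10.9 were used. TMM factors came from edgeR 4.0.16 and size factors from DESeq2 1.42.0, in R 4.3.3. The scripts were tested on simulated data. The alternatives changed the cell filter, each cut, the score genes, the scaling, the depth, the weight of each cell and the UPM floor. The version without each gene's top cell was added after seeing the data.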

Additional observations from a re-analysis of the deposited data

Results flagged for a closer look

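IGFBP2 had opposite directions in the 2 libraries when replicating cells were set against the other non-mitotic cells. In the 4B4 library the log2 ratio was 0.89, with 36.0 UPM in replicating and 19.4 UPM in other cells. In the control library it was -0.75, with 10.4 and 17.5 UPM. A single cell held 43.2% of the UMIs of the 4B4 replicating cells, and without the top cell of each library the ratios were 0.13 and -0.91. The difference between the libraries was not tested.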

How the results depend on the processing

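No paired analysis was possible because each group has 1 library and no result comes from a test. Over the alternatives that change the selection with cuts pooled over both libraries, out of 18 in all, the ratio of the replicating shares, 4B4 over control, ran from 0.360 to 0.499. Cuts within each library set the shares alike by construction, at 6.79% of each, and fall at different scores in each library. The shares themselves were 2.31% in the 4B4 and 5.03% in the control library with the replication cut at 5%, and 5.56% and 12.1% with it at 12%. The cause was not tested for any change of a count below, except that floors and cuts change which genes or cells are counted.

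Genes 2-fold higher in 4B4 than control replicating cells numbered 26. They were 60 under the stricter cell filter (2000 genes, 10% mitochondrial), 42 with scores at 17000 UMIs, 44 with the replication cut at 5%, 63 with the score from other replication genes, 144 with cuts within each library, 151 with each cell weighing the same, 87 over cells of 20000 to 60000 UMIs, 92 over cells thinned to 17000 UMIs, 65 and 10 at floors of 10 and 50 UPM, and 1704 with no floor. The 42 lower genes became 97 with the replication cut at 5%, 87 with the mitotic cut at 20%, 398 with cuts within each library, 155 over cells of 20000 to 60000 UMIs, 94 over thinned cells, 90 and 15 at floors of 10 and 50 UPM, 1197 with no floor and 77 without the top cell of each gene.

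Genes 1.5-fold higher in replicating than other cells of both libraries numbered 604, and 358 with the mitotic cut at 20%, 124 with cuts within each library, 289 at a floor of 50 UPM and 1817 with no floor. The 104 lower genes became 67 with no cell filter, 218 under the stricter filter, 199 and 57 with the replication cut at 5% and 12%, 208 and 49 with the mitotic cut at 10% and 20%, 11 with cuts within each library, 178 over cells of 20000 to 60000 UMIs, 43 at a floor of 50 UPM and 1033 with no floor. The other 52 values of these results stayed within 1.5 times or within counting error. Further values cover the 12 largest ratios in each direction, the 12 single genes and the medians of the adhesion, matrix and stress lists. Of these, 450 stayed within counting error and 213 did not. Among them the sign turned for the medians of the SRF, integrin and p53 lists and for MALAT1 (-0.14 with the mitotic cut at 20%), PLAU and MMP14. None of the last 3 passed 1.5-fold in the turned direction. Other genes named above turned sign as well, among them ACTA2, SERPINB2, HIST1H3B, MCM10 and CDC45. Depth limits low genes: KRTAP2-3, at 5.18 UPM, rests on 18 UMIs of the 4B4 replicating cells.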
